A study of Mus musculus with 2 samples.

Results

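Dusp1, Dusp2, Dusp4, Dusp5, Dusp6, Dusp10 and Dusp16 were examined as a group of 7 dual-specificity phosphatase genes, chosen by name among the 32285 genes of the annotation, of which 24 carry a Dusp name. They were followed in single-cell RNA sequencing (10x Genomics droplets) of live eGFP-positive cells sorted from the small intestine of Il23r-eGFP reporter mice, so every cell of both libraries carries that knock-in genotype and entered the sort through the Il23r reporter. 1 library is labelled as unstimulated and 1 as treated with recombinant mouse IL-23, for 2 h. Fat and Peyer's patches had been removed, and the tissue had gone through EDTA, collagenase and dispase digestion at warm temperature before sorting. The sources used here do not give the age, sex and number of the mice, or whether the unstimulated cells were incubated as long, and the protocol attached to either library speaks of the cytokine.

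Dual-specificity MAP kinase phosphatases remove the activating phosphates from threonine and tyrosine of the MAP kinases ERK, JNK and p38 and so switch them off. Many of the genes are themselves transcribed when MAP kinases are active, which makes them a feedback brake whose mRNA follows recent signalling. In lymphocytes they are known for setting how long a signal from an antigen or cytokine receptor lasts.

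The levels were taken per class of cells. Of the cells in which 500 or more genes were found and mitochondrial UMIs (unique molecular identifiers, each standing for 1 captured mRNA molecule) did not exceed 10%, those without a UMI of Cd3e, Cd3d and Cd3g were divided by a UMI of Ncr1, which encodes the NKp46 receptor, by a UMI of the chemokine receptor gene Ccr6, or by neither. Cells with Cd3e were divided into gamma delta T cells, with a UMI of Trdc, and alpha beta T cells, with a UMI of Trac. The Ncr1-positive class held 1052 cells in the unstimulated library and 1258 in the IL-23 library, the Ccr6-positive class 1535 and 1464, and the class with neither 7440 and 5802. There were 232 and 221 gamma delta T cells and 163 and 99 alpha beta T cells, and 775 of the 20041 kept cells fitted no class or 2 and were set aside. Because a single UMI opened a class, cells with neither gene can still express one of them.

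The classes differed in marker genes, in part because the gates required it. Summed T cell markers stood at 0.873 to 1.44 CPM (counts per 1000000, here UMIs of a gene among all UMIs of a class in a library) in the 3 CD3-negative classes and at 1185 to 1465 CPM in the T cell classes, and Il7r, the interleukin-7 receptor gene, was detected in all of them. The gates on Cd3e, Cd3d and Cd3g set much of this contrast in advance. Of the ungated T cell markers, Cd247 was at 0.671 to 1.36 CPM in the CD3-negative and 68.0 to 122 CPM in the T cell classes. Cd5 and Cd6 were at 0.629 and 0 CPM in unstimulated gamma delta T cells, against 116 and 160 CPM in alpha beta T cells. Trbc1, a T cell receptor gene, was at 362 CPM in unstimulated Ncr1-positive cells. Tbx21, the T-bet gene, was at 25.2 CPM in unstimulated Ncr1-positive cells against 1.34 CPM in Ccr6-positive cells, and Nrp1 at 52.8 against 219 CPM. Il22, Il17a, Il17f, Batf and Socs3, reference genes for the cytokine, were each at least 1.5-fold higher in the IL-23 library in all 5 classes. The 2 libraries held 58148889 and 61359895 UMIs in kept cells, with medians of 4928 and 6087 UMIs per cell, and mitochondrial UMIs made up 2.64% and 3.25%. They shared 29 barcodes. Signal of plasma cells was uneven: all 7 B and plasma cell markers summed to 1839 CPM in Ncr1-positive and 1278 CPM in neither cells of the unstimulated library and to 1731 CPM in Ccr6-positive cells of the IL-23 library, mostly of Igkc, against at most 38.5 CPM elsewhere, and Ms4a1 was at 0 in Ncr1-positive cells. Its part in the levels below was not tested. The ratios between the libraries, but not the levels or the other comparisons, were recomputed without cells holding markers of other cell types. That filter used markers such as Jchain, Epcam and Pecam1, but not Igkc. It left out 441 of 1052 unstimulated and 604 of 1258 IL-23 cells of the Ncr1-positive class, where Pecam1 itself was at 97.0 and 96.1 CPM. It thus removed far more than a few foreign cells.

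With 1 library per condition there was no replicate, so no p-value could be given. Intervals below are exact 95% intervals that cover counting error of UMIs or cells only, and whether a difference comes from IL-23 or from another difference between the libraries cannot be told apart. UMIs are not scaled by gene length here, and capture can differ between genes, so levels of different genes are set side by side only as captured molecules.

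Dusp2, Dusp5, Dusp6 and Dusp10 were at least 1.5-fold lower in the IL-23 library in Ncr1-positive cells, where Dusp2 was near the limit for a ratio, and no member was in Ccr6-positive cells, while Dusp4 was not lower in any class beyond its counting interval. In Ncr1-positive cells the 7 genes together stood at 899 CPM (95% interval 877 to 922) without and 559 CPM (544 to 573) with IL-23, and in Ccr6-positive cells they stood at 423 CPM (410 to 437) and 381 CPM (369 to 393). Cells with neither gene lay between them, at 621 and 467 CPM. Gamma delta T cells had 619 and 425 CPM and alpha beta T cells 522 and 438 CPM. Dusp5 supplied between 38.7% and 62.1% of the captured molecules of the group in every class and library, and Dusp1 between 14.7% and 44.6%.

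A ratio counted as lower or higher when it passed 1.5-fold and the gene reached 10 CPM in either library and 20 UMIs over both. Of the 35 ratios of a gene in a class, 32 could be measured, 9 were lower with IL-23 and 0 were higher. Of these 9, 3 reached 10 CPM only in the unstimulated library, where they were higher, and so entered through that library alone: Dusp2 in Ncr1-positive cells and Dusp16 in both T cell classes. By class these were 4 of 7 genes in Ncr1-positive cells, where 7.26% of the 6890 measured genes were lower and 5.18% higher, and 0 of 5 in Ccr6-positive cells, where Dusp2 and Dusp10 were too low to count, against 4.32% lower and 2.87% higher. In cells with neither gene 2 of 6 were lower, against 3.89% lower and 4.09% higher among all genes. The T cell classes gave 2 of 7 in gamma delta T cells, with 10.6% of all genes lower and 8.01% higher, and 1 of 7 in alpha beta T cells, with 12.2% lower and 7.83% higher. The median log2 ratio of the 7 measured members was -0.61 in Ncr1-positive cells, beside -0.12 over all measured genes. That of the 5 in Ccr6-positive cells was -0.06, beside -0.11. These medians cover different genes, because Dusp2 and Dusp10 count only in the first. The genes measured in both, Dusp1, Dusp4, Dusp5, Dusp6 and Dusp16, had -0.44, -0.02, -0.90, -1.20 and -0.19 in Ncr1-positive cells. In Ccr6-positive cells they had -0.06, 0.21, -0.32, 0.15 and -0.27. Over the 5 classes, 2030 ratios of all genes were higher and 2782 lower. With TMM factors, which moved the median of all genes by 0.13 in Ncr1-positive cells, these counts were 2497 and 1986, and 7 ratios of members were lower. Without cells holding markers of other cell types 7 of 30 were lower and 2 higher, Dusp2 and Dusp4 in alpha beta T cells, beside 2865 lower and 2093 higher of 34071 ratios of all genes. The difference in ratio between the classes was itself not tested.

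**Figure D1:**
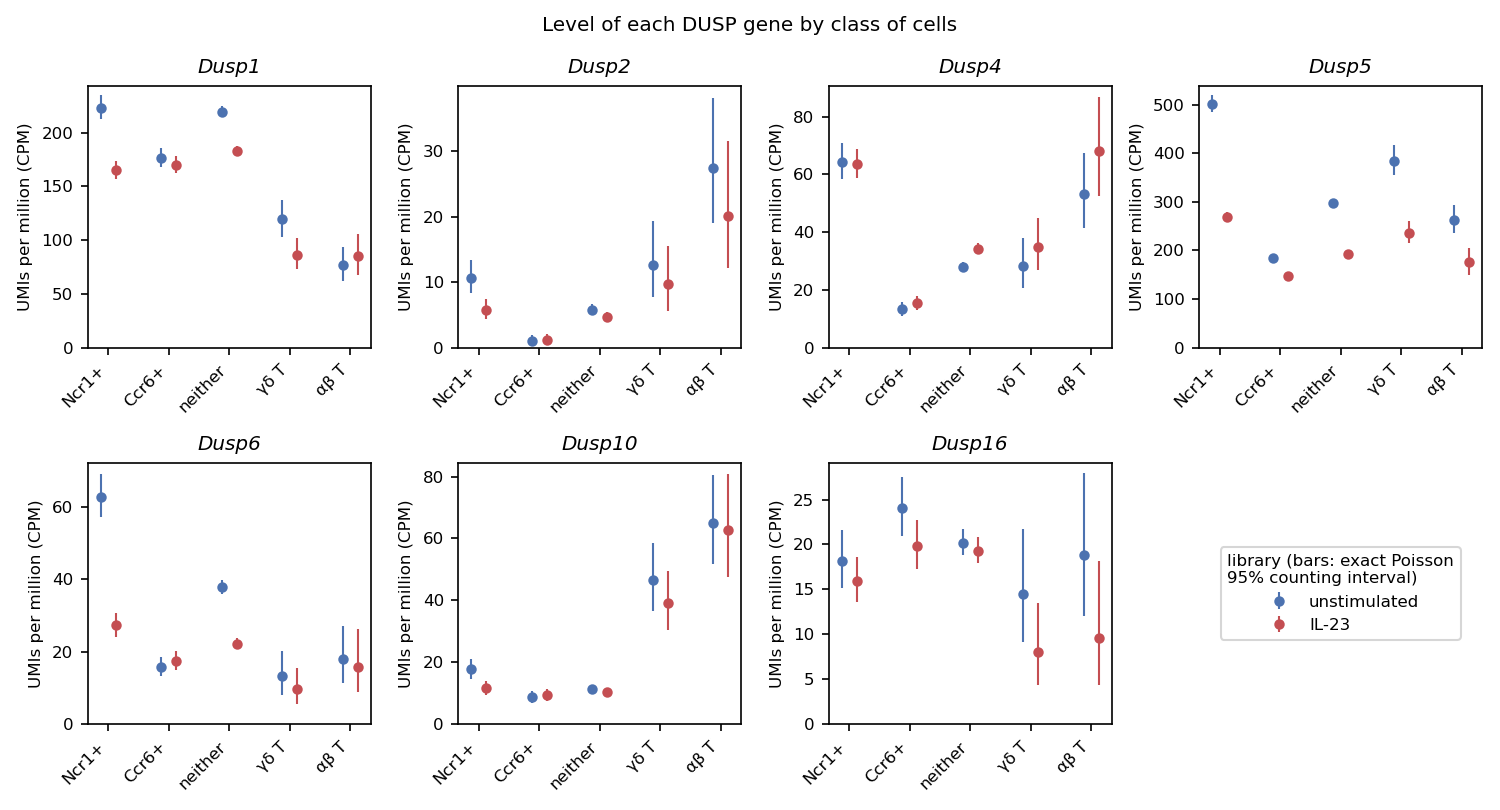
Level of each gene (vertical axis, CPM) in the 5 classes of cells, with the unstimulated library in blue and the IL-23 library in red; bars are exact Poisson 95% counting intervals and each panel has its own scale. Dusp5 stood at 502 CPM and 269 CPM in Ncr1-positive cells, the largest gap in CPM in any panel, and Dusp10 was highest in the T cell classes in both libraries.

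**Figure D2:**
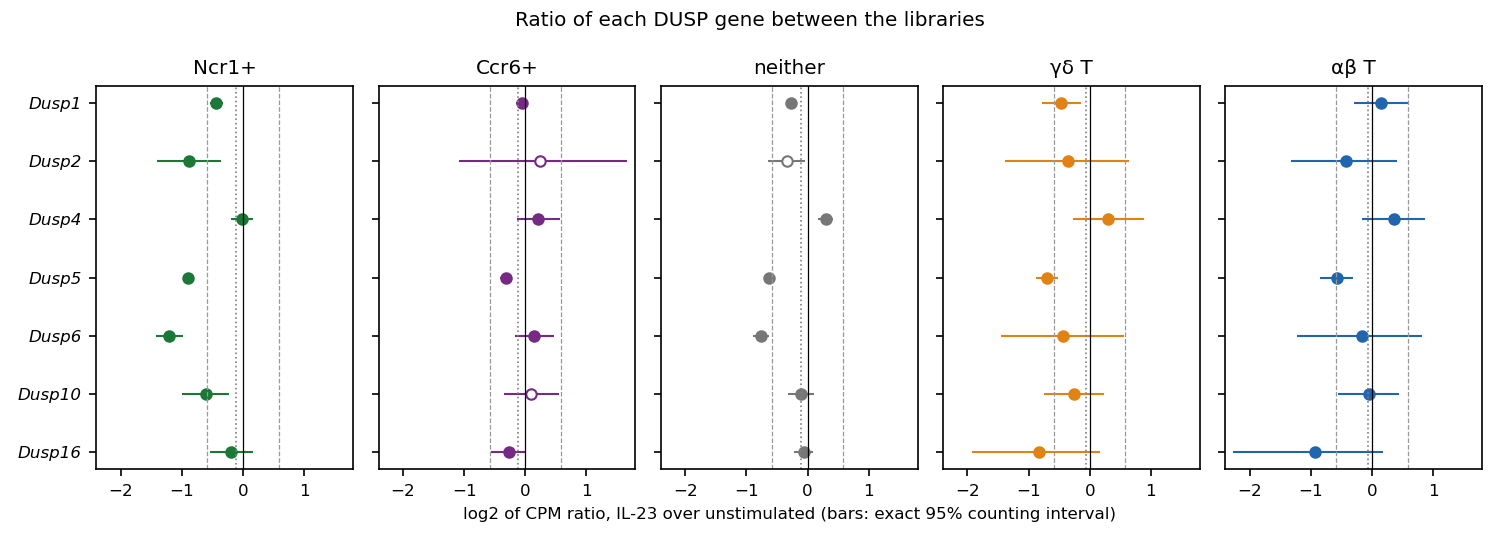
Log2 ratio of CPM, IL-23 over unstimulated (horizontal axis), for each gene in each class, with exact 95% counting intervals; dashed lines mark 1.5-fold, the dotted line the median of all measured genes, and open points genes too low to be counted. In Ncr1-positive cells Dusp2, Dusp5, Dusp6 and Dusp10 lie left of the dashed line, and in Ccr6-positive cells no gene does.

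The nuclear phosphatases that are induced early come first. Dusp1, which acts mainly on p38 and JNK, is encoded on chr17:26505590-26562128 (GRCm38, minus strand). Its level was 223 CPM (212 to 235) in unstimulated Ncr1-positive cells and 165 CPM (157 to 173) with IL-23, a 1.35-fold lower value (1.26 to 1.45) that stayed inside the 1.5-fold limit. In Ccr6-positive cells it was 177 and 170 CPM, with overlapping intervals. It was at 220 and 183 CPM in cells with neither gene, at 119.5 and 86.6 CPM in gamma delta T cells, and at 76.7 and 85.0 CPM in alpha beta T cells. Dusp1 was thus lowest in the T cell classes in both libraries, and its order among the CD3-negative classes differed: in the unstimulated library Ncr1-positive and neither cells overlapped and stood above Ccr6-positive cells, and with IL-23 Ncr1-positive and Ccr6-positive cells overlapped. In gamma delta T cells the 1.38-fold lower value passed 1.5-fold under 3 other settings, reaching 1.72-fold. The gene overlaps Ergic1 on the opposite strand, which held 942 UMIs over both libraries. Whether counting used the strand is not given in the sources used here.

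The proximal promoters of Dusp1, Dusp5 and Dusp6 are shown because these are the 2 most abundant members and the one with the largest ratio, and because their letters differ. Each is the 250 bases before the RefSeq start (GRCm38.p6), written 5′ to 3′ on the strand of the gene, with matches to a searched motif in capitals. Dusp1 lies at chr17:26508473-26508722 on the minus strand, Dusp5 at chr19:53528895-53529144 and Dusp6 at chr10:99262981-99263230, both on the plus strand. The Dusp1 window lies inside the position printed for that gene, and the Dusp5 window runs slightly into the position of its gene. Those positions come from another annotation, GENCODE, whose gene ends differ from the RefSeq starts there.
Dusp1: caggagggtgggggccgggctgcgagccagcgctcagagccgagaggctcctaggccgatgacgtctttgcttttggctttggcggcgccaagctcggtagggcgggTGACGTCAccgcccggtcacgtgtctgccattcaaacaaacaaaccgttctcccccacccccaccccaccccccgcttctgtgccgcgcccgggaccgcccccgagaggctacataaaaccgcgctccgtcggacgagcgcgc
Dusp5: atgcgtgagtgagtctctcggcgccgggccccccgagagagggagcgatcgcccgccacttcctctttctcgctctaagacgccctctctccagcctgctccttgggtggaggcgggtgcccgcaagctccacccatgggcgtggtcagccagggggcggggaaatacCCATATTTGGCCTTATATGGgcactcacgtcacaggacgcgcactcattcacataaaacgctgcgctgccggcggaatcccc
Dusp6: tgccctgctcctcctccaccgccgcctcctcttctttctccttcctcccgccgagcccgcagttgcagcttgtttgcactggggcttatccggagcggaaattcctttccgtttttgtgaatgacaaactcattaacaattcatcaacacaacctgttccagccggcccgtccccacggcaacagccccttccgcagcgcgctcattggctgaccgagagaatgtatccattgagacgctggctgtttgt
The capitals of Dusp1 mark TGACGTCA, the full cAMP response element (CRE), from 143 to 136 bases before the start. Those of Dusp5 mark a pair of adjacent CArG boxes, the motif of serum response factor, that do not overlap, from 82 to 63 bases before the start. Motifs were searched on both strands: the CRE occurred in 1.55% of the 32851 promoter windows of the same length, a CArG box in 1.47%, and 2 or more CArG boxes in 6 windows, or 0.0183%. No other match was found among the 6 members with a promoter in the table, Dusp1, Dusp2, Dusp5, Dusp6, Dusp10 and Dusp16, for these motifs or for TGANTCA (AP-1, 6.75% of windows), TTCNNNGAA (STAT, 7.02%) and TATAAA (12.4%). A match describes the letters of a window and no match says only that the letters are not in it.

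Dusp2, a nuclear phosphatase found mostly in blood cells, was the least abundant member in CD3-negative cells (chr2:127336159-127338376, plus strand). It was at 10.6 CPM (8.32 to 13.4) in unstimulated Ncr1-positive cells and at 5.75 CPM (4.36 to 7.45) with IL-23, 1.84-fold lower (1.29 to 2.66). Ccr6-positive cells had 9 and 13 UMIs in all, and cells with neither gene 5.84 and 4.62 CPM, below the limit for a ratio. The highest levels were those of alpha beta T cells, at 27.4 CPM (19.1 to 38.1) and 20.2 CPM (12.2 to 31.5), followed by gamma delta T cells at 12.6 and 9.75 CPM. Those 2 classes overlapped in their intervals, and the alpha beta value rested on few cells: 11 of 163 unstimulated cells held the 35 UMIs, 15 of them in 1 cell.

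Dusp4, a nuclear phosphatase of ERK, JNK and p38, kept nearly the same level in both libraries in Ncr1-positive cells (chr8:34807297-34819894, plus strand). Its values there were 64.4 CPM (58.6 to 70.7) and 63.5 CPM (58.6 to 68.7), a ratio of 0.985 (0.871 to 1.12). All other classes had higher values with IL-23, each within 1.5-fold: 13.3 and 15.4 CPM in Ccr6-positive cells, 27.9 and 34.3 CPM in cells with neither gene, 28.3 and 34.99 CPM in gamma delta T cells, and 53.2 and 68.0 CPM in alpha beta T cells. Among these, the counting interval stayed clear of no difference only in cells with neither gene (1.23-fold, 1.13 to 1.34). In alpha beta T cells, 3 other settings took the ratio past 1.5-fold, up to 0.455 of the IL-23 level in the unstimulated library. Ncr1-positive and alpha beta T cells overlapped at the top of the order in both libraries, and Ccr6-positive cells stood apart at its bottom.

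Dusp5, a nuclear phosphatase that is specific for ERK, gave the most captured molecules of any member in 9 of the 10 pairs of class and library (chr19:53529109-53542431, plus strand). In Ncr1-positive cells it stood at 502 CPM (486 to 519) without and 269 CPM (259 to 280) with IL-23, 1.86-fold lower (1.77 to 1.96), and only 1.96% of measured genes had a lower ratio there. Ccr6-positive cells had the lowest level, 184 and 147.5 CPM, a 1.25-fold difference (1.16 to 1.34). Cells with neither gene had 298 and 193 CPM, 1.55-fold lower. Gamma delta T cells came second in the unstimulated order with 385 CPM (355 to 417) and had 237 CPM (215 to 261) with IL-23, 1.62-fold lower (1.43 to 1.84), and alpha beta T cells had 263 and 176 CPM, 1.49-fold lower (1.23 to 1.81). Dusp5 was therefore lower in the IL-23 library in all 5 classes, with no overlap of the intervals in any of them. The value of cells with neither gene fell inside 1.5-fold with TMM factors, size factors, a total without mitochondrial, ribosomal and Il22 UMIs, or without cells holding markers of other types, at 1.43-fold at the lowest. The antisense gene AC137853.2, which overlaps Dusp5, held 342 UMIs over both libraries.

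The lower Dusp5 level concerned both how many cells had one and how many each had. Each cell was thinned to 2000 UMIs, because the IL-23 library was deeper. Of the thinned Ncr1-positive cells, 53.4% (50.3 to 56.5) of 1045 held a Dusp5 UMI without and 34.5% (31.8 to 37.2) of 1247 with IL-23, where the unthinned shares were 77.2% and 63.9%. Among unthinned positive cells the mean was 4.25 and 3.32 UMIs per cell. In Ccr6-positive cells the thinned shares were 24.0% and 20.4%. No cell class is known to lack these genes, so the share that free RNA gives could not be read off.

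Dusp6, the cytoplasmic phosphatase specific for ERK, had the largest ratio of the group (chr10:99263231-99267489, plus strand). Ncr1-positive cells had 62.8 CPM (57.1 to 69.1) in the unstimulated and 27.3 CPM (24.1 to 30.7) in the IL-23 library, 2.30-fold lower (1.98 to 2.69), and 0.711% of the measured genes had a lower ratio. In cells with neither gene it was 37.8 and 22.3 CPM, 1.70-fold lower (1.55 to 1.86). Ccr6-positive cells had 15.8 CPM (13.3 to 18.6) and 17.5 CPM (15.1 to 20.2), with overlapping intervals. The T cell classes were low and imprecise, with 13.2 and 9.75 CPM in gamma delta and 18.0 and 15.9 CPM in alpha beta T cells, so that Ncr1-positive cells were highest in both libraries. In unstimulated Ncr1-positive cells 20.3% of the cells held a Dusp6 UMI, up to 13 in 1 cell. The thinned share there was 9.57% (7.85 to 11.5) without and 5.05% (3.90 to 6.42) with IL-23. No other gene overlaps it in the annotation, nor Dusp2 or Dusp4.

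Dusp10 and Dusp16, which act on JNK and p38 rather than ERK, had other orders. Dusp10 (chr1:184013302-184075636, plus strand) was highest in T cells, with 64.9 CPM (51.7 to 80.5) and 62.7 CPM (47.7 to 80.8) in alpha beta and 46.5 CPM (36.5 to 58.4) and 39.0 CPM (30.3 to 49.5) in gamma delta T cells. The CD3-negative classes had 8.72 to 17.7 CPM. In Ncr1-positive cells it was 17.7 CPM (14.7 to 21.2) and 11.6 CPM (9.58 to 13.9), 1.53-fold lower (1.18 to 1.99), which was 1.39-fold at the lowest with other scalings. In the other classes that could be measured it differed by at most 1.19-fold. Its neighbour on the opposite strand, 1700056E22Rik, held 106 UMIs.

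In the unstimulated library Dusp16 (chr6:134715468-134792625, minus strand) had the smallest span over the classes of any member, 1.66-fold from the highest to the lowest. With IL-23 it spanned 2.48-fold, more than Dusp5 at 1.83-fold and Dusp1 at 2.15-fold. Its levels ran from 24.0 CPM (20.9 to 27.5) in Ccr6-positive to 14.5 CPM (9.17 to 21.7) in gamma delta T cells without IL-23, and every pair of neighbours in the order overlapped in both libraries, with wide intervals in the T cell classes. The lower values with IL-23 in gamma delta T cells, 8.03 CPM, and in alpha beta T cells, 9.56 CPM, rested on 14 and 9 UMIs. The ratios, 1.78-fold (0.888 to 3.78) and 1.90-fold (0.881 to 4.80) lower, passed 1.5-fold but their counting intervals include no difference. Dropping cells above the 95th percentile of UMIs took them to 1.5-fold or less. In the 3 CD3-negative classes the difference was 1.05-fold to 1.21-fold.

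The CD3-negative classes differed in the members within a library. In the unstimulated library 5 of 7 genes were at least 1.5-fold higher in Ncr1-positive than in Ccr6-positive cells and 0 lower, where 9.49% of 7284 measured genes were higher and 13.9% lower. Dusp2 was 10.1-fold higher (5.26 to 24.0), Dusp4 4.83-fold (3.95 to 5.98), Dusp6 3.98-fold (3.29 to 4.86), Dusp5 2.73-fold (2.57 to 2.90) and Dusp10 2.03-fold (1.52 to 2.74). These counts include Dusp2 and Dusp10, which reached the limit of 10 CPM only in the Ncr1-positive class, where they were higher, and the Dusp2 ratio rests on 9 UMIs in Ccr6-positive cells. With IL-23, 3 of 6 measured genes were higher, beside 9.45% of all genes higher and 12.8% lower: Dusp4 by 4.10-fold (3.46 to 4.91), Dusp5 by 1.83-fold (1.72 to 1.95) and Dusp6 by 1.56-fold (1.29 to 1.89). Dusp2, below the limit for a ratio there, was at 5.75 CPM against 13 UMIs in all Ccr6-positive cells, 4.65-fold higher (2.59 to 9.53). The gap was thus present in both libraries for Dusp4 and narrower in the IL-23 library for Dusp5 and Dusp6. Dusp10 was 1.24-fold higher (0.943 to 1.64) with IL-23, an interval that overlaps that of the unstimulated library. Dusp1 stood at 1.26-fold (1.18 to 1.36) without and 0.971-fold (0.908 to 1.04) with IL-23. How far these differences between classes would vary over mice was not measured.

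Against Ncr1-positive cells, gamma delta T cells had more Dusp10 and less of several others. Dusp10 was 2.63-fold higher (1.94 to 3.53) without and 3.37-fold higher (2.45 to 4.57) with IL-23, while 18.6% and 21.1% of measured genes were higher in the T cells. Dusp1, Dusp4 and Dusp6 were lower in both libraries, by 1.86-fold, 2.26-fold and 4.65-fold without IL-23, and Dusp16 passed 1.5-fold in the IL-23 library, at 1.92-fold (1.15 to 3.72). In that library Dusp6 and Dusp16 reached 10 CPM only in the Ncr1-positive class of this pair. Among all genes 11.2% and 10.7% were lower. Dusp5 was 1.30-fold and 1.14-fold lower.

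CD3-negative cells were also grouped by their number of Ncr1 or Ccr6 UMIs, and beyond the first Ncr1 UMI the levels showed no common order. In the unstimulated library Dusp5 was at 298 CPM in cells with neither gene, at 488, 562 (525 to 602) and 470 CPM (421 to 524) in cells with 1, 2 and 3 or more Ncr1 UMIs, and at 195, 178 and 154 CPM in those with 1, 2 and 3 or more Ccr6 UMIs. Cells with neither gene thus stood between both arms. Dusp6 was at 37.8 CPM with neither gene and at 59.9, 67.6 and 73.1 CPM along Ncr1, and in the IL-23 library at 22.3 CPM and 28.3, 24.1 and 27.0 CPM. Dusp4 was at 27.9 CPM and at 60.3, 71.7 and 77.4 CPM without IL-23 and at 60.3, 61.4 and 86.5 CPM with it. From 1 Ncr1 UMI upward the intervals of neighbouring steps overlapped for Dusp4 and Dusp6, and for Dusp5 only between the top steps with IL-23. Cells with more UMIs of a gate gene were deeper, with medians of 5800.5 to 6596 UMIs along Ncr1 against 4675.5 in cells with neither gene. The part of depth in these steps was not tested.

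**Figure D3:**
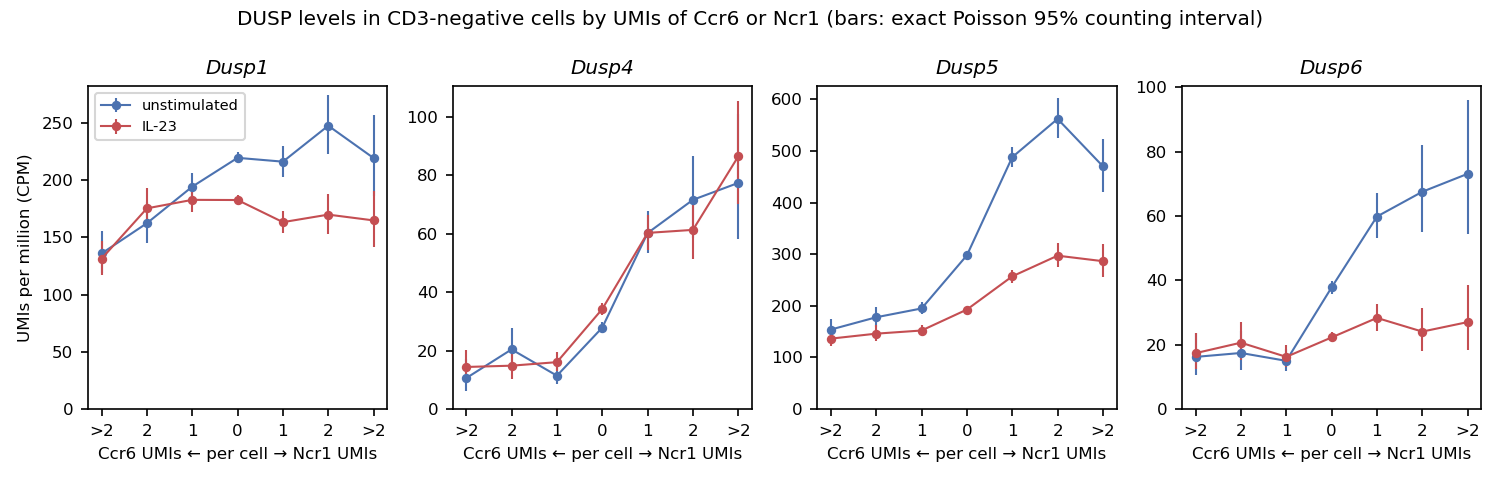
Level of Dusp1, Dusp4, Dusp5 and Dusp6 (vertical axis, CPM) in CD3-negative cells grouped by the number of Ccr6 UMIs (left of 0) or Ncr1 UMIs (right of 0) per cell, with exact Poisson 95% counting intervals. Dusp5 went from 154 CPM at the Ccr6 end to 470 CPM at the Ncr1 end in unstimulated cells and from 137 to 287 CPM in the IL-23 library. For Dusp4 the intervals of the 2 libraries overlap at every step except 0. There it stood at 27.9 CPM (26.2 to 29.7) without and 34.3 CPM (32.3 to 36.3) with IL-23.

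Most pairs of phosphatases common enough to compare were found more often in the same cells than independent detection would give. Pairs of other genes were not counted, so whether this is particular to the members was not tested. Among cells with neither gene thinned to 2000 UMIs, 25 pairs of members over both libraries were expected in at least 10 cells, and 23 of them were seen in more cells than expected. Within thinned unstimulated Ncr1-positive cells 8 of 10 such pairs were above expectation, with a median of 1.15 times the expected count and a range of 0.794 to 1.33. With IL-23 6 of 6 were above it there, and in Ccr6-positive cells 3 of 3 without and 4 of 5 with IL-23. Dusp5 and Dusp6 occurred together in 182 unstimulated cells where 144 were expected and in 88 IL-23 cells where 54.0 were expected. Dusp4 and Dusp5 occurred together in 158 cells against 107, and in 125 against 78.3. The pair below expectation that was furthest from it was Dusp5 with Dusp16, in 72 cells against 93.9, and it was not below in the IL-23 library (59 against 54.3). Of thinned Ncr1-positive cells 72.3% held 1 or more members without and 56.3% with IL-23, on average 1.13 and 0.791 members per cell, and of Ccr6-positive cells 44.9% and 44.6%, on average 0.604 and 0.587.

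Fos is an immediate early gene downstream of MAP kinases. In the CD3-negative classes, cells with a Fos UMI held Dusp1, Dusp4, Dusp5 and Dusp6 more often, in part with overlapping intervals. In unstimulated Ccr6-positive cells a Dusp5 UMI was present in 42.0% (37.6 to 46.6) of 490 Fos-positive and 15.4% (13.3 to 17.8) of 1025 Fos-negative thinned cells, and a Dusp1 UMI in 40.4% and 18.7%. In unstimulated Ncr1-positive cells the Dusp5 shares were 65.3% (60.2 to 70.2) and 47.0% (43.2 to 50.8), and in the IL-23 library 44.3% and 29.2%. Dusp5 was thus lower with IL-23 both in cells with and in cells without Fos. For Dusp16 the intervals overlapped: 3.68% (2.96 to 4.52) of Fos-positive and 3.89% (3.35 to 4.48) of Fos-negative unstimulated cells with neither gate gene held it. In unstimulated Ncr1-positive cells they also overlapped for Dusp2, at 2.19% and 1.62%, and for Dusp10, at 3.83% and 3.83%. For Dusp10 in unstimulated cells with neither gate gene they were apart, at 2.79% (2.16 to 3.54) and 1.72% (1.37 to 2.13). Fos itself was at 404 and 373 CPM in Ncr1-positive and at 439 and 440 CPM in Ccr6-positive cells. These cells share 1 library each, and the source of the shared detection was not tested.

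**Figure D4:**
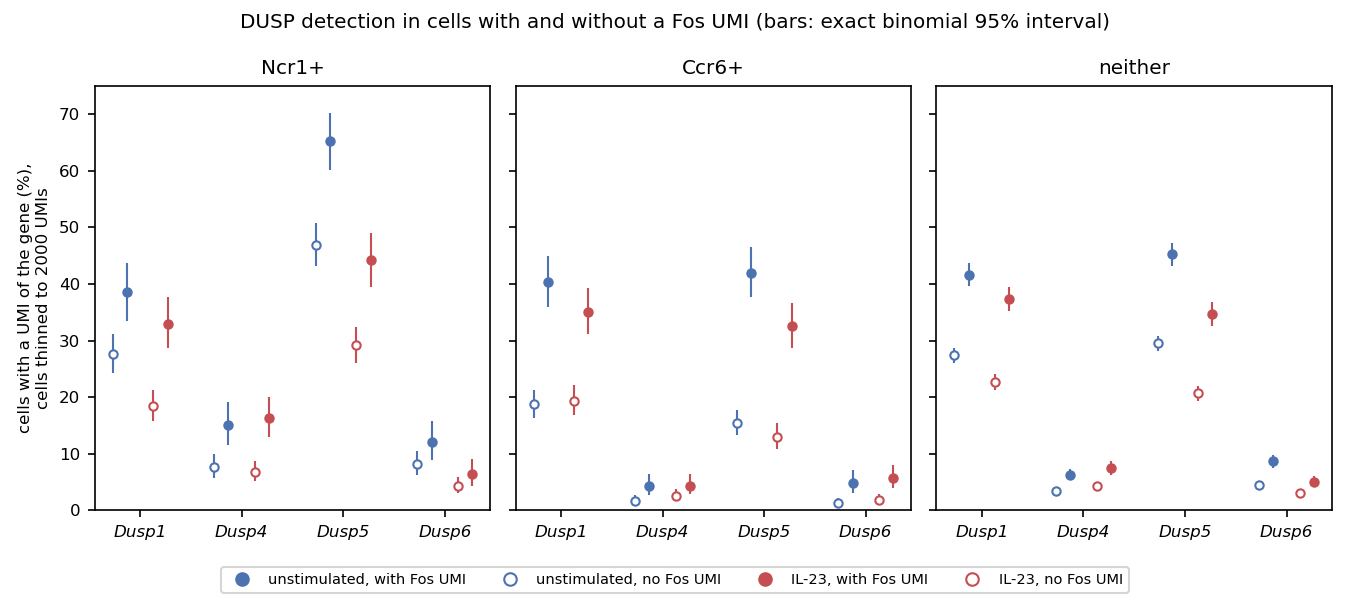
Share of cells with a UMI of Dusp1, Dusp4, Dusp5 or Dusp6 (vertical axis, percent of cells thinned to 2000 UMIs) among cells with (filled) and without (open) a Fos UMI in the 3 CD3-negative classes, with exact binomial 95% intervals. The filled point is above the open point for each gene in each library and class, and for Dusp5 in unstimulated Ccr6-positive cells they stand at 42.0% and 15.4%. Not all intervals are apart: for Dusp6 in unstimulated Ncr1-positive cells they overlap, at 12.0% (8.87 to 15.8) and 8.25% (6.29 to 10.6).

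Hspa1a, a chaperone gene induced by stress, was at least 1.5-fold lower in the IL-23 library in every class except cells with neither gene, the largest class. No other heat shock gene was examined here. Hspa1a was at 73.9 and 45.8 CPM in Ncr1-positive cells, 176 and 86.7 CPM in Ccr6-positive cells and 52.0 and 50.8 CPM in cells with neither gene. Thinned unstimulated Ncr1-positive cells with an Hspa1a UMI held Dusp4 in 31.9% (19.1 to 47.1) of 47 cells, against 9.22% of 998 without. With all Hspa1a-positive cells left out, a step chosen after the data were seen, 10 of 31 measured ratios were lower with IL-23 and 0 higher, beside 2792 lower and 2080 higher of 35596 ratios of all genes.

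Other genes of the pathway, in lists chosen with earlier results known, did not share 1 direction. Of the 24 measured immediate early targets in Ncr1-positive cells 6 were at least 1.5-fold lower and 4 higher, with a median log2 ratio of -0.14, beside -0.12 over all genes, and in Ccr6-positive cells 1 of 23 was lower and 4 higher. Nr4a1, an orphan nuclear receptor gene of early activation, was at 502 and 232 CPM in Ncr1-positive cells, Nr4a3 at 317 and 180 CPM, Klf4 at 430 and 237 CPM and Atf3 at 977 and 648 CPM. Egr1, a target of ERK, was at 24.4 and 9.49 CPM in Ncr1-positive cells but at 25.3 and 38.7 CPM in Ccr6-positive cells. Higher with IL-23 in all 5 classes were Myc, from 7.13 to 40.6 CPM in Ncr1-positive cells, and Jund, from 372 to 989 CPM. Jun did not pass 1.5-fold in any class.

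Among feedback genes outside the group, Spred2, an inhibitor of the step from Ras to Raf, was higher in all 5 classes, from 11.6 to 62.9 CPM in Ncr1-positive and from 9.28 to 28.5 CPM in Ccr6-positive cells. Errfi1, an inhibitor of growth factor receptor kinases, went the other way in Ncr1-positive cells, from 171 to 103 CPM. Of the 7 measured genes of this list 2 were higher and 1 lower in Ncr1-positive cells, and 2 higher and 0 lower in Ccr6-positive cells. Of the other dual-specificity phosphatases and their Slingshot relatives 7 of 14 were measured in Ncr1-positive cells, with 3 higher and 1 lower. Ssh2, which acts on cofilin and not on MAP kinases, was higher in all 5 classes, from 271 to 786 CPM in Ncr1-positive cells.

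Most kinases stayed within 1.5-fold. In Ncr1-positive cells 3 of 24 were higher and 1 lower, and in Ccr6-positive cells 2 of 26 were higher and 0 lower. Map2k4, which activates JNK and p38, was at 62.1 and 147 CPM in Ncr1-positive and at 66.0 and 107 CPM in Ccr6-positive cells, and Map3k2 was higher in all 5 classes. Map3k8, which activates the ERK kinases, was higher in the T cell classes, at 37.1 and 76.3 CPM in gamma delta and 39.1 and 105 CPM in alpha beta T cells. Among the effectors, Zfp36, an mRNA decay factor, was higher in all 5 classes, and Mknk2 was lower in Ncr1-positive cells, at 149 and 96.0 CPM.

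**Figure D5:**
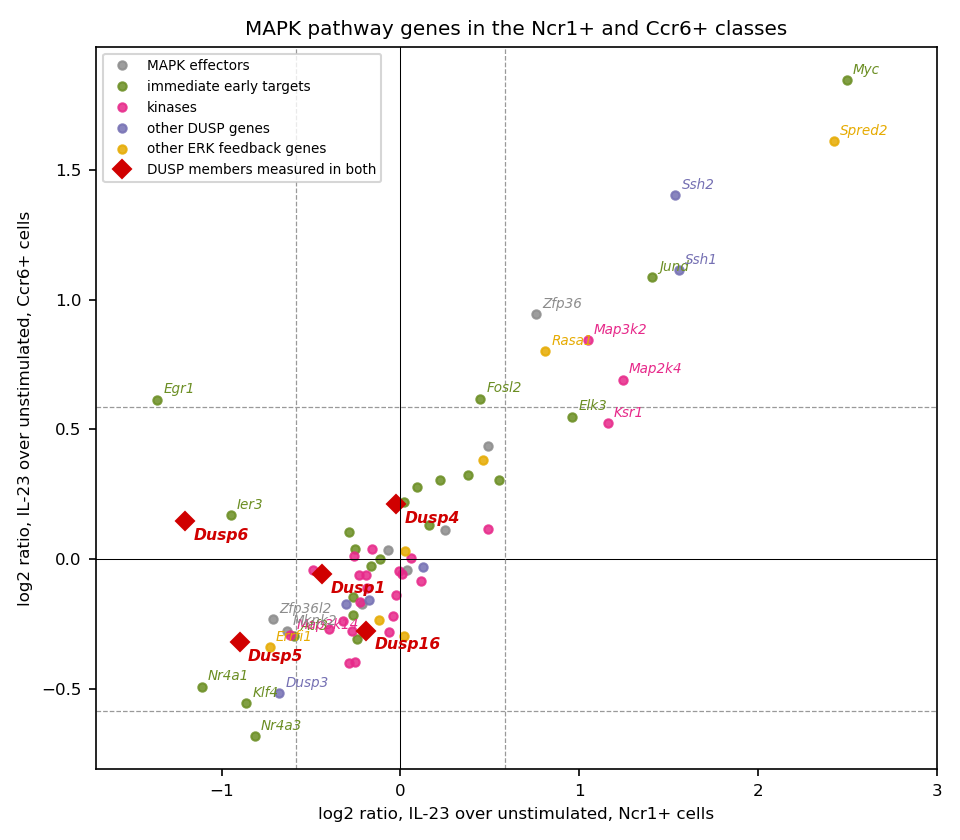
Log2 ratio, IL-23 over unstimulated, in Ncr1-positive cells (horizontal axis) and Ccr6-positive cells (vertical axis) for 68 MAP kinase pathway genes (circles, coloured by list) and the 5 members measured in both classes (red diamonds); dashed lines mark 1.5-fold. Dusp6, at -1.20 and 0.15, lies near Egr1 and Ier3 on the left, and Spred2, Myc and Ssh2 lie at the upper right.

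The genes whose levels were most alike were ranked by Pearson's r of log2(CPM + 1) over the 10 pairs of class and library, among 6631 genes with at least 20 CPM in 1 or more. Those values share cells of 2 libraries, so r is a description only. For Dusp5 they were Pik3r1 (r = 0.980), AW011738 (0.968) and Dstn (0.968), and Pik3r1, a regulatory subunit gene of PI3 kinase, was at 728 and 336 CPM in Ncr1-positive and 171 and 105 CPM in Ccr6-positive cells. For Dusp1 they were Gjb2 (0.989), Slbp (0.980) and Rbbp8 (0.978), and for Dusp6 Xdh (0.947), Slc25a3 (0.947) and Parp4 (0.940). Dusp2 ranked with Gimap7, Ucp2 and Gimap6, Dusp10 with Emp3 (0.997), Abracl and Atp5e, Dusp4 with Atxn1, Gbp6 and Zap70, and Dusp16 with AI987944, Zfyve16 and Wdr48. Among the members themselves Dusp2 and Dusp10 had the highest r (0.88), and Dusp1 and Dusp10 the lowest (-0.88).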

How the data were processed

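The deposited files hold raw counts (UMIs) per gene and barcode, whole numbers that the authors made with Cell Ranger against mm10. The version is 3.1.0 per the submitters' processing notes and 6.0.0 per the file headers, and the sources used here give no gene annotation or strand setting. Members and lists were chosen with earlier results of these data known. Kept cells had 500 or more genes and no more than 10% mitochondrial UMIs, and UMIs were summed per class and library. A ratio added 0.5 UMI to each sum, and no test was made with 1 library per condition. Named pathway genes passed 1.5-fold with at least 20 CPM in a class, or are Fos, Jun and Egr1. For likeness the 3 highest r were named. Doublets were not called. Leaving out cells above the 95th percentile of UMIs was an alternative, beside other scalings, cell filters, gates and thresholds. Shares were taken after thinning each cell to 2000 UMIs, which left out 397 unstimulated and 324 IL-23 cells of the 5 classes that were shallower. The ratio and thinning steps were tested on simulated data. Gene positions are GENCODE on GRCm38, and promoters are RefSeq. Intervals are exact Poisson for sums, Clopper-Pearson for shares and conditional binomial for ratios. Tools were Python 3.11.15, numpy 2.4.6, scipy 1.17.1, pandas 2.3.3 and, for TMM factors, edgeR 4.0.16.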

Additional observations from a re-analysis of the deposited data

Results flagged for a closer look

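A few pathway genes passed 1.5-fold in opposite directions in different classes, and these differences were not tested. The log2 ratio of Egr1, IL-23 over unstimulated, was -1.36 in Ncr1-positive and 0.61 in Ccr6-positive cells. Ier3, an early response gene, had -0.95 in Ncr1-positive cells and 0.88 in cells with neither gene. Dusp7, a cytoplasmic ERK phosphatase outside the 7 genes, had 1.35 in Ncr1-positive cells, 0.60 in gamma delta T cells and -0.86 in alpha beta T cells.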

How the results depend on the processing

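Each of the 35 ratios was recomputed under 14 alternatives. None of the 9 ratios counted as lower changed direction under any of them, and 462 of the 490 values stayed within the counting interval of the reported one. The count of lower ratios was 11 with a gate of 2 UMIs. That gate kept only 310 unstimulated and 405 IL-23 Ncr1-positive cells, and 106 and 72 alpha beta T cells. The count over all genes under that gate is not given here, so the 11 is not read as a trait of the members. It was 7 with TMM factors, with size factors and with a total without mitochondrial, ribosomal and Il22 UMIs. Dusp10 in Ncr1-positive cells reached 1.39-fold at the lowest, with these scalings, and Dusp16 reached 1.21-fold in gamma delta and 1.37-fold in alpha beta T cells with other choices of cells. The count was 1, Dusp6 in Ncr1-positive cells, at a 2-fold threshold. Higher ratios numbered 1 without cells above the 95th percentile of UMIs, 1 with the mean of per-cell CPM and 2 without cells holding markers of other cell types, all in alpha beta T cells, where few UMIs limit the ratios. Over all genes, 806 were higher and 655 lower at 2-fold, and 12846 and 15906 without a filter on low counts. The share of thinned cells was lower with IL-23 in 24 of 35 pairs of gene and class, in 22 when thinned to 3000 UMIs and in 16 without thinning. The matching share over all genes was not computed, so these counts are not read as a trait of the members. Over all measured genes the median log2 ratio was itself negative in every class, from -0.12 in Ncr1-positive to -0.06 in gamma delta T cells. The 29 shared barcodes, left out in a step added after the data were seen, left 9 ratios lower. No paired analysis was possible because each condition has 1 library.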

Other observations

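Detection of the phosphatases was also set beside that of the cytokine genes in the same thinned cells. In unstimulated Ccr6-positive cells, Dusp5 was present in 25.3% (23.0 to 27.7) of 1403 cells with an Il22 UMI and in 8.04% (3.74 to 14.7) of 112 cells without one, and Dusp1 in 27.0% and 9.82%. In unstimulated cells with neither Ncr1 nor Ccr6 the order for Dusp5 was the opposite, with 32.4% (31.1 to 33.6) of 5484 Il22-positive and 43.1% (40.7 to 45.6) of 1589 Il22-negative cells. Cells of that class can still express Ncr1 or Ccr6, and the part of such a mixture in the order was not tested. In unstimulated Ncr1-positive cells the Dusp5 shares were 51.5% and 57.0% with overlapping intervals. After IL-23 13 Ncr1-positive and 3 Ccr6-positive cells lacked Il22, too few to compare. Among Ccr6-positive IL-23 cells, Dusp6 was in 6.13% (3.73 to 9.41) of 310 Il17a-positive and 2.47% (1.65 to 3.55) of 1133 Il17a-negative cells. The unstimulated Ccr6-positive cells did not show this difference. There Dusp6 was in 2.74% (0.334 to 9.55) of 73 Il17a-positive and 2.43% (1.70 to 3.36) of 1442 Il17a-negative cells. The Dusp6 split was picked from many, and the other members had overlapping intervals in the same IL-23 cells.

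Cells set aside from the classes had levels of their own. In cells with Cd3d or Cd3g but no Cd3e, Dusp10 was at 38.1 CPM (28.3 to 50.3) in 220 unstimulated and 21.8 CPM (15.5 to 29.8) in 238 IL-23 cells, between the CD3-negative and the T cell classes in both, and Dusp5 was at 376 and 249 CPM. In cells with both Ncr1 and Ccr6, 48 and 59 in number, Dusp5 was at 417 CPM (362 to 478) and 222 CPM (189 to 258) and Dusp4 at 67.8 CPM (46.7 to 95.2) and 43.8 CPM (29.9 to 61.8). Their median depth was 9802.5 and 12243 UMIs, above that of every class.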
